A study of Homo sapiens with 4 samples.

Results

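The replication-dependent histone genes were measured in androgen-treated LNCaP prostate cancer cells with and without CPI-455, an inhibitor of the KDM5 family of histone H3 lysine 4 demethylases. Protein-coding genes were taken whose current symbols are H1-1 to H1-6 or begin with H2AC, H2BC, H3C or H4C followed by digits, which gave 70 of the 60675 genes counted. There were 6 linker histone H1 genes, 17 H2A genes, 19 H2B genes, 13 H3 genes and 15 H4 genes. Of these, 55 lie on chromosome 6 and 13 on chromosome 1, while H2BC12L lies on chromosome 21 and H4C16 on chromosome 12. The rule uses names alone and no measured value.

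These genes supply the histones that package newly copied DNA, and in textbook accounts their mRNAs rise as cells enter S phase and are destroyed when DNA synthesis stops. They lie in clusters, mostly lack introns, and their mRNAs end in a conserved stem-loop bound by the protein SLBP in place of a poly(A) tail. Processing at the stem-loop requires the U7 small nuclear ribonucleoprotein, and some of the genes are also known to give longer polyadenylated transcripts that run past the stem-loop.

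LNCaP is an established androgen-responsive line derived from a metastasis of human prostate cancer. All 4 libraries came from cells in hormone-depleted medium given 1 nM R1881, a synthetic androgen dissolved in ethanol, for 72 h, with either DMSO as vehicle (R1881 + vehicle, n = 2) or 50 µM CPI-455 in DMSO (R1881 + CPI-455, n = 2). The libraries held 19623553 and 20690819 counts under vehicle but 9522920 and 5401588 under CPI-455, so the smaller CPI-455 library set the precision for low genes. How RNA was selected for the libraries, by poly(A) or otherwise, is not given in the sources used here. Because these are bulk samples, more cells in S phase and more RNA per cell cannot be told apart. The luminal prostate genes KLK3, KLK2, TMPRSS2, FOLH1, HOXB13, KRT8 and KRT18 were all counted, with a summed level of 799 and 731 CPM (counts scaled to a library of 1000000 counts) under vehicle and 365 and 417 CPM under CPI-455. The basal keratin KRT5 had 0 counts in every library.

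Because transcripts of this family are defined by their 3' end, the stem-loops of the members with the most counts are shown first. A stem-loop, taken as a 6-base inverted repeat that starts with GG around a 4-base loop that starts with TTT, was found within 150 bases past the stop codon in 64 of the 70 genes. The 5 sequences below come from the GRCh38 genome and belong to the 3 genes that rose with the highest counts and to H2BC15 and H4C8, which fell. Capitals mark the 16 bases of the stem and loop.
H2BC21: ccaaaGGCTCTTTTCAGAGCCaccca
H1-2: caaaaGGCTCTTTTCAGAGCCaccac
H2BC12: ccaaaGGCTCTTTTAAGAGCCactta
H2BC15: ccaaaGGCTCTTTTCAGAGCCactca
H4C8: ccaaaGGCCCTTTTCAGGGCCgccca

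In order, these runs lie at chr1:149886183-149886208 (minus strand), chr6:26055739-26055764 (minus strand), chr6:27146361-27146386 (minus strand), chr6:27839085-27839110 (plus strand) and chr6:26285126-26285151 (minus strand). The stem and loop of H2BC21, H1-2 and H2BC15 were identical and recurred in 40 of the 64 genes, so the same 16 bases were present in genes that rose and in 1 that fell. The form of H2BC12 was found in 9 genes and that of H4C8 in 10, whereas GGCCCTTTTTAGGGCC was found in 4 and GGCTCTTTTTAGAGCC in H2AC20 alone. None was found by this rule in H2AC11, H2AC15, H2BC10, H2BC12L, H3C6 or H4C13.

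The 250 bases before the start site are shown for the 2 genes with the most counts among those that rose, H2BC21 and H1-2, and among those that fell, H2BC15 and H4C8. They are RefSeq sequences of build GRCh38.p14. Capitals mark 3 motifs, CCAAT (on the other strand ATTGG), the TATA box as TATAAA (on the other strand TTTATA) and the octamer ATTTGCAT (on the other strand ATGCAAAT), the last known as the binding site of OCT1, which acts at H2B promoters. All were read on both strands.
H2BC21: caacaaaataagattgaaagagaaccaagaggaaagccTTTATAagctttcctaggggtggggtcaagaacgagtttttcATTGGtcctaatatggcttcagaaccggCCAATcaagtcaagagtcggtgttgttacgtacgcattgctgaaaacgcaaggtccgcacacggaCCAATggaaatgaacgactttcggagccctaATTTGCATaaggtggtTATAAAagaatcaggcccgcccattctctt
H1-2: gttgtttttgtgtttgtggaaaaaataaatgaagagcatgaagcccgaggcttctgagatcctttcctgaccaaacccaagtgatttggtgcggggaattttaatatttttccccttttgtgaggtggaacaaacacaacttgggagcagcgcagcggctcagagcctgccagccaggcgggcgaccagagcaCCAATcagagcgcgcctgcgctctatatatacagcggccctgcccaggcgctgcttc
H2BC15: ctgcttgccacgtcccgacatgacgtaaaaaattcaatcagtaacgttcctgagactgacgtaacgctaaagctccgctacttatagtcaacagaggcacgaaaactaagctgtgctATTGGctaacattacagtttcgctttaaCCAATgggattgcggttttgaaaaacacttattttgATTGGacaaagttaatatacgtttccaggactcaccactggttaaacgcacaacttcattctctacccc
H4C8: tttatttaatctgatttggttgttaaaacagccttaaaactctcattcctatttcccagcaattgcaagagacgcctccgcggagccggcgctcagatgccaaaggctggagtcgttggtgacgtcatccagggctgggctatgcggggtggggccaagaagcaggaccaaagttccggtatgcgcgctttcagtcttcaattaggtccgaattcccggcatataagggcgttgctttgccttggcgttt

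In order, these lie at chr1:149886683-149886932 (minus strand), chr6:26056471-26056720 (minus strand), chr6:27838319-27838568 (plus strand) and chr6:26285535-26285784 (minus strand). The H2BC21 stretch held 3 CCAAT, 2 TATAAA and 1 octamer, that of H1-2 held 1 CCAAT, that of H2BC15 held 3 CCAAT, and that of H4C8 held none of the 3 motifs. Over windows of 250 bases before to 50 bases after the start, CCAAT was present in 54 of the 64 histone genes listed (84.4%), against 34.6% of all 35116 promoters. It was present in every listed H1, H2A, H2B and H3 promoter, but in 3 of 13 H4 promoters. TATAAA was present in 42 of the 64 (65.6%) against 11.5% of all promoters. The octamer was present in 26 (40.6%) against 1.77% of all promoters, and was found in 14 of 18 H2B, 11 of 16 H2A and 1 of 11 H3 promoters and in no H1 or H4 promoter. The H3 match is that of H3C4, which is listed with the same upstream stretch as H2AC7 (chr6:26199294-26199543). That stretch is therefore counted under both H2A and H3, for CCAAT as well as for the octamer, and no other H3 promoter held the octamer. It also overlaps the H2BC7 stretch. Other H2A and H2B genes transcribed away from each other share most of their stretch, such as H2AC11 (chr6:27132793-27133042) and H2BC11 (chr6:27132796-27133045), and H2AC20 and H2BC21. With both strands read, their motifs are counted under both classes, so the H2A and H2B counts are not of separate motifs. These matches are of letters only.

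Levels were compared as CPM after TMM scaling, and fold changes are given as CPI-455 over vehicle. A gene was called when the false discovery rate (FDR) was below 0.05, by Benjamini-Hochberg over the 17600 genes given to the quasi-likelihood test of edgeR, and its change was at least 2-fold. Most replication-dependent histone genes that could be tested were higher with CPI-455. Of the 24 that had enough counts to test, 15 were called higher (62.5%) and 3 were called lower (12.5%). Among all genes tested, 21.0% were called higher and 21.3% lower, and among the 13814 protein-coding genes 15.6% were called higher and 24.4% lower. The median log2 fold change was 2.18 over the tested histone genes, against -0.04 for all genes tested and -0.21 for the protein-coding ones. The 24 tested genes passed a filter on low counts that could be met through the CPI-455 libraries alone, and they do not stand for all 70. Of the genes called higher, H2AC20 and H2BC7 met it only in this way. H4C5 and H3C2 would not have met it through the vehicle libraries alone. In the plot of levels by library, both CPI-455 libraries were above both vehicle libraries for 19 of the 24 genes and below them for 3. The share of all genes tested that were separated in this way was not determined, so these counts stand without a background.

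**Figure D1:**
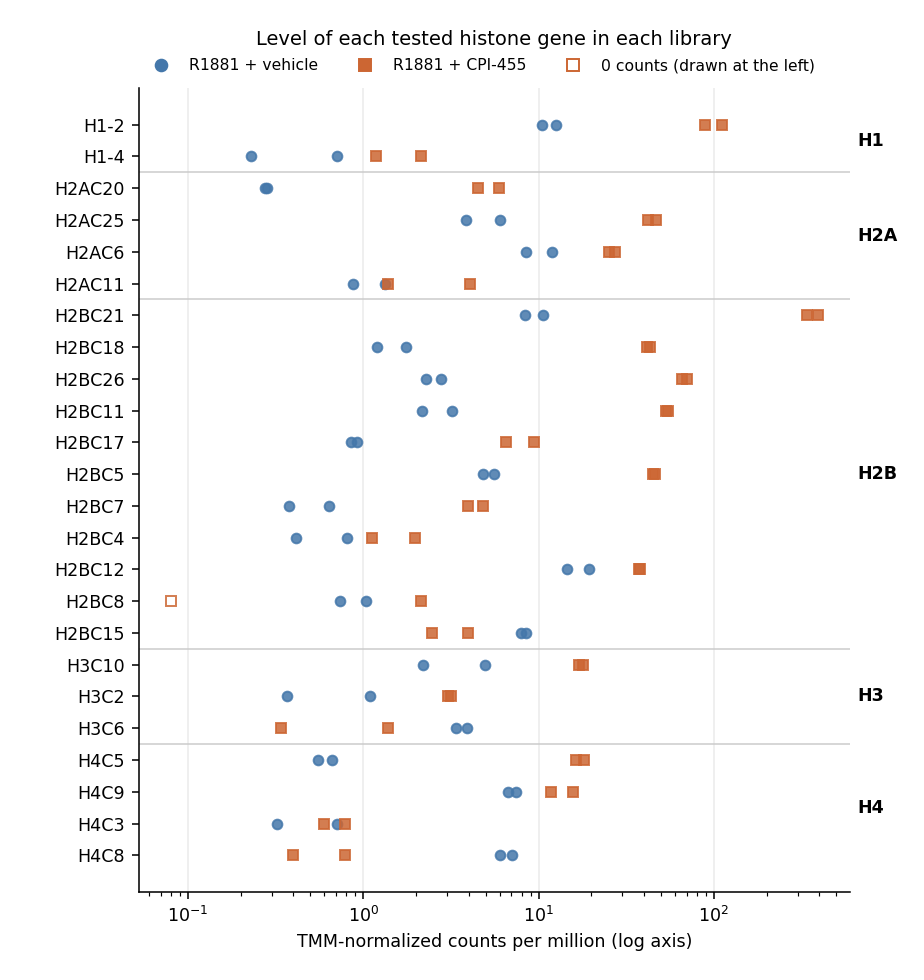
TMM-normalized CPM (log axis) of the 24 tested histone genes in each of the 4 libraries, grouped by histone class and ordered by fold change. Circles are the 2 R1881 + vehicle libraries and squares the 2 R1881 + CPI-455 libraries; H2BC21 reached 338 and 391 CPM with CPI-455, and H2BC8 had 0 counts in 1 CPI-455 library.

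The largest fold change of the family was that of an H2B gene. H2BC21 (also HIST2H2BE, chr1:149842204-149886652) had 223 and 183 counts under vehicle and 3006 and 1972 under CPI-455. That is 9.47 ± 1.54 CPM against 365 ± 37.5 CPM (mean ± SD, n = 2 each), a log2 fold change of 5.27 (SE 0.16, FDR = 2.74e-07). It took 9.15% and 9.12% of all counts of the 70 genes in the vehicle libraries but 40.3% and 43.0% in the CPI-455 libraries. H2BC18, also on chromosome 1 (chr1:149782689-149812373), had 37 and 26 counts under vehicle and 368 and 218 under CPI-455 (log2 fold change 4.84, SE 0.25, FDR = 8.91e-07). H2BC26 (chr1:228458107-228460470) had 59 and 50 counts under vehicle and 625 and 332 under CPI-455 (log2 fold change 4.74, SE 0.19, FDR = 5.83e-07). Each of these 3 H2B genes of chromosome 1 thus had more raw counts in the CPI-455 libraries although these were less deeply sequenced.

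On chromosome 6, H2BC11 (chr6:27125897-27132750) had 68 and 47 counts under vehicle and 484 and 270 under CPI-455 (log2 fold change 4.33, FDR = 9.44e-07). H2BC5 (chr6:26158146-26171349) had 102 and 122 counts against 411 and 228 (log2 fold change 3.13, FDR = 1.83e-06). The groups were well apart in both, at 2.69 ± 0.755 against 54.0 ± 0.630 CPM for H2BC11 and 5.21 ± 0.535 against 45.7 ± 0.714 CPM for H2BC5. H2BC17 (18 and 20 counts against 84 and 33) and H2BC7 (8 and 14 against 43 and 20) were lower genes with rises of a like size, at 3.18 (FDR = 2.00e-04) and 3.09 (FDR = 1.46e-03) on the log2 scale. H2BC7 met the filter on low counts only through the CPI-455 libraries, where it was high. H2BC12 (chr6:27146418-27146798) was the H2B gene with the most counts in the vehicle libraries, at 411 and 316, and had 332 and 191 with CPI-455. Its raw counts were therefore not higher, but scaled to depth its level rose from 17.0 ± 3.53 to 37.6 ± 0.380 CPM (log2 fold change 1.15, FDR = 6.69e-04). It fell below 2-fold without vehicle replicate 2 (log2 fold change 0.93), when scaled by library totals alone (0.96) and with no filter (0.99). With a trend over exon length and GC content removed the sign turned (-0.53) and this lower value passed the FDR (0.0298).

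H2BC15 (chr6:27837760-27865798) was the only tested H2B gene called lower, with 167 and 184 counts under vehicle and 22 and 20 under CPI-455. Its level was 8.17 ± 0.367 CPM against 3.22 ± 1.05 CPM (log2 fold change -1.39, SE 0.35, FDR = 6.87e-03). The call was lost when either vehicle library was left out, at FDR = 0.0592 without replicate 1 and 0.0921 without replicate 2. H2BC4 had 17 and 9 counts against 10 and 10 (log2 fold change 1.30, SE 0.72, FDR = 0.144). H2BC8 had 22 and 16 counts under vehicle but 19 and 0 under CPI-455, so that its CPI-455 libraries lay on both sides of the vehicle ones (log2 fold change 0.44, SE 0.96, FDR = 0.709). Without CPI-455 replicate 1 its log2 fold change was -6.84 (FDR = 0.0282), a value set by the 0 of the remaining library.

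Among the H2A genes, 3 of the 4 tested were called higher, against 21.0% of all genes tested. H2AC25 (also HIST3H2A, chr1:228456979-228457873) had 127 and 84 counts under vehicle and 414 and 211 under CPI-455, or 4.93 ± 1.53 against 44.2 ± 3.34 CPM (log2 fold change 3.17, SE 0.24, FDR = 5.37e-06). H2AC20 (chr1:149886975-149887364), which is transcribed away from the neighbouring H2BC21, had 6 counts in each vehicle library and 40 and 30 with CPI-455 (log2 fold change 4.17, SE 0.61, FDR = 2.89e-04). H2AC6 (chr6:26124145-26139116) had 251 and 185 counts under vehicle and 225 and 138 under CPI-455. Scaled to depth these are 10.2 ± 2.41 against 26.3 ± 1.46 CPM (log2 fold change 1.37, SE 0.23, FDR = 6.43e-04). H2AC11 had 28 and 19 counts against 36 and 7, and its lower CPI-455 library (1.39 CPM) barely exceeded its higher vehicle library (1.33 CPM) (log2 fold change 1.36, SE 0.65, FDR = 0.0925). Without CPI-455 replicate 2 it was called higher (log2 fold change 1.84, FDR = 3.48e-04).

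Linker histones bind where DNA enters and leaves the nucleosome, and H1-2 (also HIST1H1C, chr6:26055787-26056428) was the main H1 gene counted. It had 265 and 229 counts under vehicle and 788 and 559 under CPI-455. Its level was 11.5 ± 1.46 CPM against 99.7 ± 15.7 CPM (log2 fold change 3.11, SE 0.17, FDR = 1.24e-06). H1-2 held 10.9% and 11.4% of the counts of the family under vehicle and 10.6% and 12.2% under CPI-455, a narrow range beside that of H2BC21. H1-4 had 15 and 5 counts against 19 and 6 (log2 fold change 1.85, SE 0.77, FDR = 0.0607). Its value was 2.79 without vehicle replicate 1 and 1.20 without vehicle replicate 2, and it was called higher without CPI-455 replicate 2 (log2 fold change 2.13, FDR = 5.36e-03), with upper-quartile factors (FDR = 0.0445) and with the likelihood-ratio test (FDR = 0.0210). H1-3 had 3 counts in each vehicle library and 20 and 1 with CPI-455 and was not tested.

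The H3 genes were low in every library, and all 3 tested were called. Of all genes tested, 21.0% were called higher and 21.3% lower. H3C10 (chr6:27810064-27811300) had 105 and 48 counts under vehicle and 151 and 90 under CPI-455, or 3.58 ± 1.96 against 17.4 ± 0.612 CPM (log2 fold change 2.28, SE 0.37, FDR = 5.52e-04). H3C2 (chr6:26031650-26032060) had 23 and 8 counts against 27 and 16 (log2 fold change 2.08, SE 0.67, FDR = 0.0226). H3C6 (chr6:26224199-26227473) moved the other way, with 82 and 74 counts under vehicle and 3 and 7 under CPI-455 (log2 fold change -2.25, SE 0.64, FDR = 0.0126). The calls of H3C2 and H3C6 were both lost when either vehicle library was left out, with FDR of 0.0907 and 0.350 for H3C2 and of 0.163 and 0.106 for H3C6 without replicates 1 and 2. With the exon length and GC trend removed H3C2 was at 0.50 (FDR = 0.525).

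The H4 genes were mixed. H4C5 (chr6:26204552-26206038) had 14 and 12 counts under vehicle and 146 and 91 under CPI-455, a rise from 0.606 ± 0.0802 to 17.2 ± 1.15 CPM (log2 fold change 4.81, SE 0.35, FDR = 4.13e-06). H4C8 (chr6:26277609-26285638) had 149 and 131 counts under vehicle but 7 and 2 under CPI-455, a fall from 6.53 ± 0.747 to 0.592 ± 0.276 CPM (log2 fold change -3.34, SE 0.49, FDR = 2.82e-04). These changes ran in opposite directions although most H4 genes encode the same protein. H4C9 (chr6:27138588-27139881) had 156 and 146 counts against 104 and 79, or 7.04 ± 0.495 against 13.7 ± 2.81 CPM, and its change passed the FDR (0.0116) but not 2-fold (log2 fold change 0.94). H4C3 had 15 and 7 counts against 7 and 3 and its groups overlapped (log2 fold change 0.45, SE 0.81, FDR = 0.647).

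The remaining 46 genes were not tested, and 5 of them reached 10 counts in some library. Besides H1-3 these were H2AC13 (11 and 9 counts with vehicle, 6 and 19 with CPI-455), H2AC19 (0 and 0, then 12 and 2), H2BC6 (13 and 5, then 3 and 0) and H4C16 (6 and 10, then 0 and 0). A further 23 genes had between 1 and 9 counts in their highest library, namely H1-5, H1-6, H2AC8, H2AC12, H2AC16, H2AC17, H2AC18, H2AC21, H2BC3, H2BC9, H2BC12L, H2BC13, H3C1, H3C8, H3C11, H3C12, H3C13, H4C2, H4C4, H4C11, H4C12, H4C14 and H4C15. No counts were found in any library for 18 genes, H1-1, H2AC1, H2AC4, H2AC7, H2AC14, H2AC15, H2BC1, H2BC10, H2BC14, H3C3, H3C4, H3C7, H3C14, H3C15, H4C1, H4C6, H4C7 and H4C13. A count of 0 allows a level of up to 0.142 and 0.137 CPM in the vehicle libraries and up to 0.337 and 0.595 CPM in the CPI-455 libraries (the CPM of 3 counts, counting error only), so differences among these genes were not detectable at this depth. This bound does not cover reads left out because they fit several places or genes, which bears on genes such as H2AC7, H2AC15, H3C4, H3C14 and H3C15.

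Summed over all members of a class, tested or not, every class was higher in both CPI-455 libraries than in both vehicle libraries. The H2B genes rose from 54.9 and 45.9 CPM with vehicle to 609 and 654 CPM with CPI-455, a ratio of means of 12.5. The H1 genes went from 12.1 ± 1.80 to 104 ± 13.4 CPM (8.54 times), of which H1-2 made up 95.0% under vehicle and 96.3% with CPI-455. The H2A genes went from 17.4 ± 4.10 to 83.5 ± 1.69 CPM (4.79 times). The H3 genes went from 8.29 ± 2.66 to 22.6 ± 2.02 CPM (2.72 times) and the H4 genes from 15.5 ± 1.71 to 33.2 ± 3.31 CPM (2.15 times). Over all 70 genes the sum was 104 ± 16.6 CPM under vehicle and 874 ± 48.7 CPM with CPI-455 (8.43 times). With 2 libraries a group the exact permutation test cannot give a two-sided p under 0.333, which is the value each class sum had, and differences between classes were not tested. These sums are not scaled to gene length, so they compare the same genes between the groups and not one class with another.

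**Figure D2:**
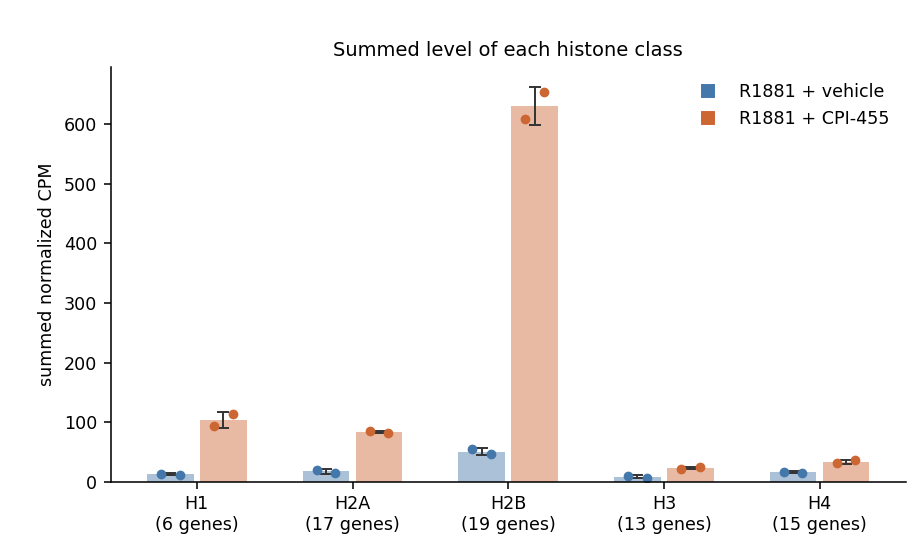
Summed normalized CPM of all genes of each histone class. Bars are means and error bars SD of the 2 libraries of a group, and points are the libraries; the H2B sum went from 50.4 to 631 CPM, and the sums are not scaled to gene length.

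By class, called genes numbered 1 higher of 2 tested for H1, 3 higher of 4 for H2A, 8 higher and 1 lower of 11 for H2B, 2 higher and 1 lower of 3 for H3, and 1 higher and 1 lower of 4 for H4. The shares over all genes tested were 21.0% higher and 21.3% lower, and H4, at 25% each way, was near them. The median log2 fold changes of the tested genes were 2.48, 2.27, 3.13, 2.08 and 0.70 in that order. These medians rest on few genes and moved with the processing. With a trend over exon length and GC content removed they were 1.31, 1.78, 2.48, 0.50 and -0.13, so that the direction of the H4 median was not kept. The tested histone genes had a median exon length of 1217 bases, against 4292 bases for all genes tested, and a median GC content of 48.4% against 48.5%. In the plot of fold changes, the values shifted most by the removal of the trend belonged to genes whose exon model is the short, GC-rich coding region, such as H2BC12, H2BC17, H3C2 and H2AC20. The 3 H2B genes of chromosome 1 and H4C5 shifted little.

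**Figure D3:**
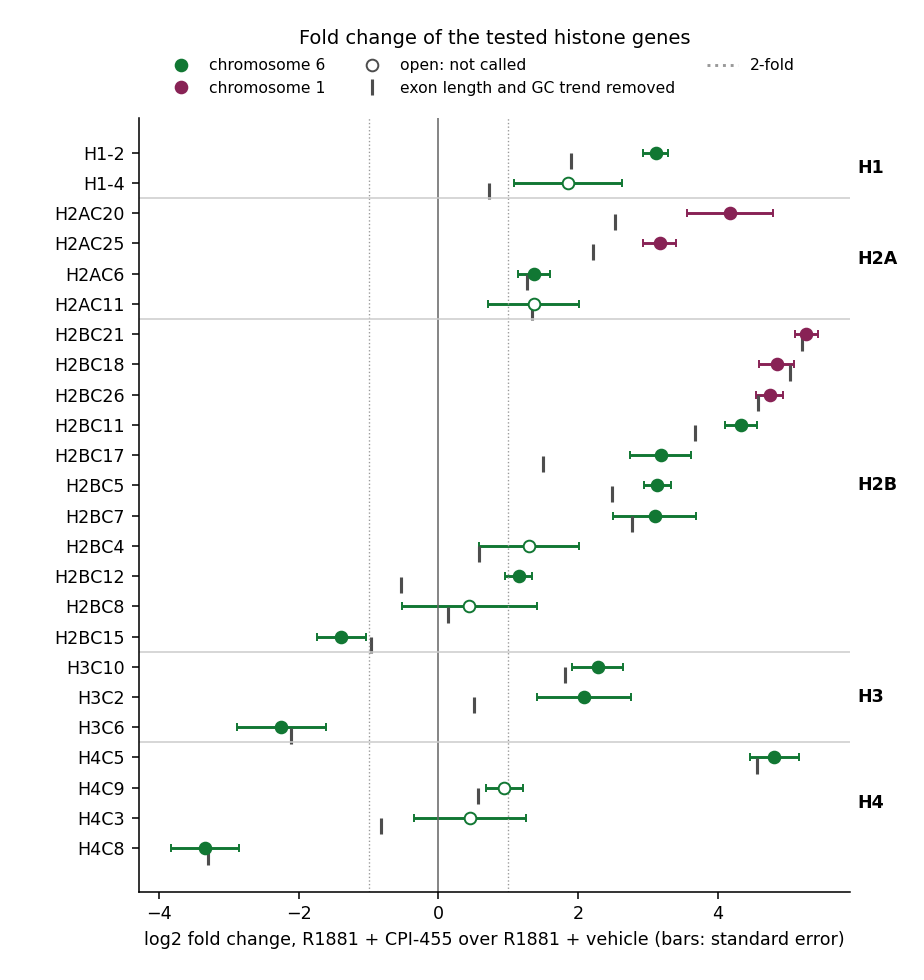
Log2 fold change of the 24 tested histone genes, CPI-455 over vehicle, with standard errors, by class. Green points lie on chromosome 6 and purple ones on chromosome 1, open points were not called, dotted lines mark 2-fold, and the vertical ticks give the value with the exon length and GC trend removed, which for H2BC12 was -0.53 in place of 1.15.

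By position, the genes fall into 4 groups. On chromosome 6 there were 34 genes in the upstream part of the cluster (chr6:25726132-26285638) and 21 in the downstream part (chr6:27125897-27893843). Chromosome 1 had a larger cluster of 11 genes (chr1:149782689-149887916) and a smaller one of 2 (chr1:228456979-228460470). All 5 tested genes of chromosome 1, out of 13 there, were called higher, with log2 fold changes between 3.17 and 5.27 and a median of 4.74. H2AC20, with 6 counts in each vehicle library, met the filter on low counts only through the CPI-455 libraries, where it was high. Among all genes tested, 21.0% were called higher and 21.3% lower. Of the 19 tested genes of chromosome 6, 10 were called higher and 3 lower, with a range from -3.34 to 4.81 and a median of 1.37. The upstream part had 6 higher and 2 lower of 12 tested (median 1.61), and the downstream part had 4 higher and 1 lower of 7 (median 1.36), so both parts of chromosome 6 held genes of each direction.

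The summed level of chromosome 1 genes rose from 19.0 ± 3.87 to 527 ± 32.4 CPM (27.7 times), and that of chromosome 6 genes from 84.2 ± 12.9 to 347 ± 16.4 CPM (4.12 times). H2BC21 alone made up 49.7% of the chromosome 1 sum under vehicle and 69.2% with CPI-455. Within chromosome 1 the larger cluster rose 35.9 times and the smaller one 15.0 times. With the length and GC trend removed the medians were 4.58 for chromosome 1 and 0.73 for chromosome 6. The classes are not spread evenly over the chromosomes, since the 5 tested chromosome 1 genes are 3 H2B and 2 H2A genes, and class and cluster cannot be told apart for these.

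**Figure D4:**
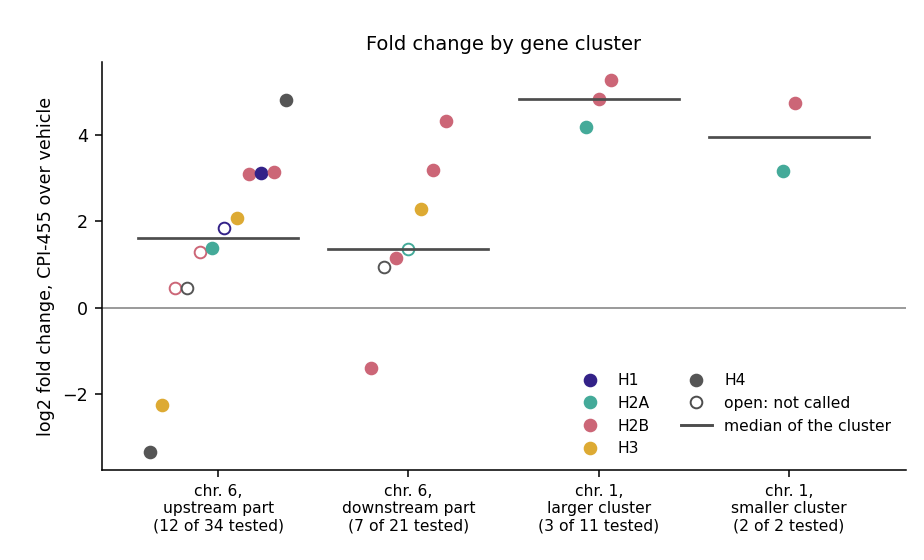
Log2 fold change of the tested histone genes by gene cluster, coloured by class; open points were not called and horizontal lines are the cluster medians. All 5 tested chromosome 1 genes lie above 3, while both parts of the chromosome 6 cluster hold tested genes above and below 0.

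Genes of the same cluster were also set side by side. H2BC21 and H2AC20, which are transcribed away from each other on chromosome 1, both rose (log2 fold changes 5.27 and 4.17), as did the pair H2AC25 and H2BC26, arranged in the same way (3.17 and 4.74). On chromosome 6, H2BC11 rose (4.33) beside H2AC11, whose value was 1.36 without a call. H4C8, which fell, and H4C5, which rose, lie in the same upstream part of the chromosome 6 cluster. H4C9 (0.94) lies between H2BC11 and H2BC12 (1.15) on the chromosome.

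The exon models against which the reads were counted differ in where they end. In 23 genes the model held 100 bases or more past the stem-loop, and in 41 it held fewer, most often none. The 23 longer models included 21 detected genes, 15 tested, 10 called higher and 2 called lower (median log2 fold change 3.09). The 41 shorter models included 28 detected genes, 7 tested, 5 called higher and none lower, with a median of 2.08. Called higher were thus 66.7% of the tested long models and 71.4% of the short ones, against 21.0% of all genes tested. Called lower were 13.3% of the tested long models, fewer than the 21.3% of all genes tested. Their summed levels rose from 65.6 to 705 CPM and from 33.3 to 166 CPM respectively. Genes with long models therefore made up most of the tested genes, and genes of both kinds rose. H2BC21 had 1795 bases past the stem-loop, H2BC26 had 1917, H2BC18 had 2707 and H4C5 had 1022. Of the genes that fell, H2BC15 had 4131 such bases and H4C8 had 1655, while no stem-loop was found for H3C6. H1-2, H2BC12, H2BC17, H2AC20 and H3C2 rose with models that held no base past it. With the exon length and GC trend removed H2BC12 was lower instead (-0.53, FDR = 0.0298). The counts are per gene, so how many reads lay before and after a stem-loop was not measured.

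**Figure D5:**
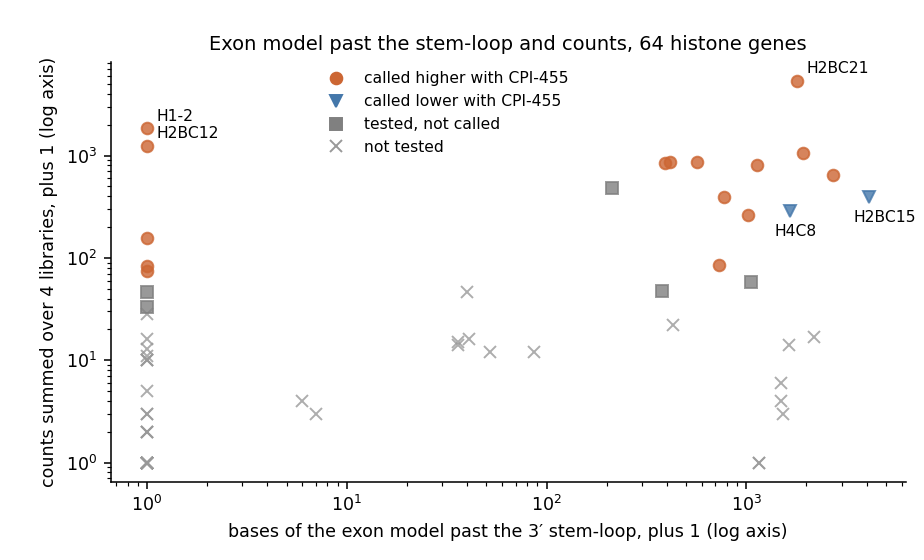
Counts summed over the 4 libraries against the bases of the exon model past the 3' stem-loop, each plus 1 and on log axes, for the 64 genes with a stem-loop. Circles were called higher, downward triangles lower, squares were tested but not called and crosses were not tested; of the 7 tested genes at the left, with fewer than 100 such bases, H1-2 and H2BC12 had the most counts, and H2BC21 had the most of all.

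Levels between genes can be compared only per length. Per kilobase of exon model, H2BC12 was the highest of the family with vehicle at 44.5 CPM, followed by H1-2 at 17.9 CPM, H2AC6 at 6.10 CPM and H2BC5 at 5.98 CPM. With CPI-455 the order was H2BC21 at 161 CPM per kilobase, H1-2 at 155 CPM, H2BC12 at 98.7 CPM, H2BC11 at 56.8 CPM, H2BC5 at 52.5 CPM and H2AC25 at 49.4 CPM. H2BC21 had been at 4.19 CPM per kilobase with vehicle. A model that runs far past the stem-loop lowers such a value where the reads end at the stem-loop.

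Near-identical copies limit some genes, since reads that fit several places were not counted. All 75-base windows of the exon model were unique in the genome for 40 genes, and under 50% were unique for 14. No window was unique for H2AC18, H2AC19, H2BC12L, H3C14, H3C15, H4C12, H4C14 and H4C15, whose low counts are uncertain. H2BC18 (45.2% of windows unique), H2BC12 (49.5%) and H2AC20 (76.3%) were the called genes most affected, while H2BC21 (95.0%) and H1-2 (100%) were little affected. With only the genes that had at least 90% unique windows, the H2B sum rose 17.3 times in place of 12.5.

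Exon overlap with another gene affected 26 genes, and fragments that fit several genes were left out whichever strand they came from. H2BC15 shares 393 exon bases with H2AC15, which is thereby fully covered and had 0 counts in all libraries, and H2BC21 shares 66 bases with H2AC18. H3C4 shares all 411 of its exon bases, and H2AC7 shares 385 of 393, with another protein-coding gene, and both had 0 counts in all libraries. That other gene had 7 and 11 counts under vehicle and 5 and 4 under CPI-455. H2BC18 shares 177 bases with FCGR1A, which had 6 and 1 counts under vehicle and 0 and 0 under CPI-455. The counting did not use strand, so antisense reads cannot be told apart from the genes' own.

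Few of the genes known to make, process and handle histone mRNA and new histones were called higher. Of 33 listed genes, 32 were tested and 2 were called higher (6.25%, against 21.0% of all genes tested and 15.6% of protein-coding genes). A further 7 were called lower (21.9%, close to the 21.3% of all genes and 24.4% of protein-coding genes). The median log2 fold change of the 32 was -0.51, and RNU7-1, the RNA part of the U7 particle, had 0 counts in every library. Among the 9 transcription genes none was called higher and 2 were called lower (22.2%), but 5 had an upward change that passed the FDR without reaching 2-fold. Their median log2 fold change was 0.35, and their summed level was 543 and 564 CPM under vehicle and 648 and 638 CPM under CPI-455. POU2F1, which encodes OCT1, had the largest of these changes, with 1160 and 1188 counts under vehicle and 872 and 488 under CPI-455, or 54.7 ± 0.369 against 97.4 ± 0.916 CPM (log2 fold change 0.83, FDR = 2.65e-04). NPAT, the coactivator that drives histone transcription, had 763 and 933 counts under vehicle and 323 and 92 under CPI-455 (log2 fold change -0.49, FDR = 0.132). The others were CRAMP1 (0.52), GON4L (0.48), HINFP, which binds H4 promoters (0.38), and CASP8AP2, a component of histone locus bodies (0.35). The cyclin E genes, whose kinase activates NPAT, were called lower, CCNE1 with 786 and 660 counts against 94 and 46 (log2 fold change -1.76, FDR = 7.30e-05) and CCNE2 just past 2-fold (-1.01).

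For 3' end processing, 2 of the 12 tested genes were called higher and 2 lower (16.7% each, against 15.6% and 24.4% of protein-coding genes). The median log2 fold change was -0.55 although the summed level went from 1041 and 1074 CPM to 1171 and 1146 CPM. SLBP, which binds the stem-loop, had 2264 and 2297 counts under vehicle and 553 and 336 under CPI-455, a change that passed the FDR (6.55e-04) but not 2-fold (log2 fold change -0.72). The U7 proteins LSM10 (-0.56) and LSM11 (-0.54) were likewise under 2-fold, whereas ZNF473, a U7-associated zinc finger protein, was called lower with 1076 and 1161 counts against 171 and 116 (log2 fold change -1.31, FDR = 9.81e-05). The cleavage factor gene CPSF2 was also called lower (-1.30). The scaffold gene SYMPK (1.31, FDR = 3.17e-05) and SRRT (1.11, FDR = 2.21e-05), which links the cap to 3' end formation, were called higher. Of the 5 genes of histone mRNA translation and decay, ERI1, an exonuclease that trims the stem-loop end, was called lower with 746 and 668 counts against 90 and 74 (log2 fold change -1.44, FDR = 3.75e-04), and TUT7, which adds uridines to these ends, lay just under 2-fold (-0.998). Of the 6 genes for chaperones and a modifier of new histones, ASF1A (-2.17) and ASF1B (-1.44) were called lower (33.3%, against 24.4% of protein-coding genes) and none higher.

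Of the 20 genes listed for S phase and DNA replication, all tested, MCM5 alone was called higher (5.0%, against 21.0% of all genes tested and 15.6% of protein-coding genes). A further 6 genes were called lower (30.0%, against 21.3% of all genes and 24.4% of protein-coding genes), and the median log2 fold change was -0.50. The replication clamp gene PCNA had 6090 and 6502 counts under vehicle and 1761 and 906 under CPI-455 (log2 fold change -0.63, FDR = 8.74e-04, under 2-fold). The helicase gene MCM2 was called lower (-1.03), while the nucleotide reductase gene RRM2 (-0.33, FDR = 0.0953) and CCNA2, the S-phase cyclin (0.08, FDR = 0.644), were not called. The summed level of the list was 4013 and 4239 CPM under vehicle and 2934 and 2636 CPM under CPI-455, so that both CPI-455 libraries lay below both vehicle libraries, where the histone sums lay above.

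Markers of the line moved too. Of the 7 luminal genes, 4 were called lower (57.1%, against 21.3% of all genes tested and 24.4% of protein-coding genes) and none higher. Those called were FOLH1 (log2 fold change -2.58), HOXB13 (-2.01), KLK3 (-1.65) and KRT8 (-1.07), while TMPRSS2 (-0.66) and KRT18 (-0.43) passed the FDR under 2-fold. KLK2 went the other way, from 84.2 and 64.4 CPM to 108 and 111 CPM (log2 fold change 0.56, FDR = 8.33e-03), also under 2-fold. Markers of basal cells (KRT5, KRT14, TP63) and leukocytes (PTPRC, CD3E, CD68) had at most 11 counts in any library, and their summed levels were 0.189 and 0.275 CPM and 0.0947 and 0.183 CPM under vehicle and 1.24 and 1.19 CPM and 0.90 and 0 CPM with CPI-455. Of the stromal and endothelial markers, DCN had at most 1 and PECAM1 at most 4 counts, while COL1A1, with 105 and 88 counts against 90 and 39, was called higher (log2 fold change 1.00, FDR = 0.0195). The part of these differences, of sequencing depth and of the length and GC trend in the rise of the histone genes was not tested.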

How the data were processed

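RNA-seq of 4 LNCaP libraries, described by the study as biological replicates, was analysed. The authors deposited raw counts of fragments per gene, made with Trim Galore, STAR and featureCounts v1.5.0-p1 on GRCh38 and Ensembl release 83, with no use of strand and without fragments that fit several places or genes. Such counting lowers the values of near-identical histone genes. The 70 genes were found by current symbol through their Ensembl ID (66) or by position and strand (4). Genes with enough counts (filterByExpr, minimum 10) were fitted with edgeR 4.0.16 in R 4.3.3 (TMM, quasi-likelihood test, no covariate). Replicates differed beyond sampling noise (chi-square per degree of freedom 5.77 with vehicle, 8.63 with CPI-455). Every histone gene with at least 10 counts in a library is given with its counts. Alternatives included other scalings and filters, DESeq2 1.42.0, a likelihood-ratio test, a test against 2-fold, thinning to 5401588 counts, a replicate block, a smooth trend over exon length and GC content (mgcv 1.9.3), and leaving out each library. The steps were tested on simulated data. The members and lists were chosen with earlier results of these data known. Floors and p-values cover counting error and the spread between these libraries only. Some listed luminal marker genes are not reported here.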

Additional observations from a re-analysis of the deposited data

How the results depend on the processing

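Calls of single histone genes kept their direction and side of the threshold under most settings. The count called higher stayed between 12 and 18 under all 18 alternatives (13 to 18 with 1 library left out). The count called lower was 1 with 10 counts required in every library and with the test against a 2-fold null, and between 1 and 4 with 1 library left out, 1 when either vehicle library was. Scaling moved the median of all genes from -0.04 to 0.14 (upper quartile) and -0.23 (library totals), and dropping the filter moved it to -0.41. The test against a 2-fold null called 2455 of all genes higher and 2350 lower, against 3698 and 3756. The deviations of same-numbered libraries from their group means were not correlated across genes (0.04). With 2 libraries a group this cannot show whether the replicates were matched experiments. With a replicate block 15 histone genes were called higher and 3 lower.

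The median log2 fold change of the tested histone genes, 2.18, was 1.21 with no filter (52 genes), 3.19 with 10 counts in every library (14 genes), 3.03 after thinning (19 genes), 1.42 with the exon length and GC trend removed and 1.39 with the replicate block as well, and 2.02 to 2.96 with 1 library left out. For H1 these were, in the same order, 2.97, 3.15, 3.32, 1.31 and 1.33, and 2.28 to 3.08 with 1 library left out. For H2A they were 1.62 (no filter), 3.07 (thinned), 1.78 (trend) and 1.76 (trend and replicate block), and 1.84 to 2.98 with 1 library left out. For H2B they were 3.31 (upper quartile), 2.94 (library totals), 1.13 (no filter), 3.80 (10 in every library), 3.49 (thinned), 2.48 (trend) and 2.48 (trend and replicate block), and 2.89 to 3.22 with 1 library left out. For H3 they were 1.56 (no filter), 0.50 (trend) and 0.61 (trend and replicate block), and 1.48 to 2.96 with 1 library left out. For H4 they were 0.87 (upper quartile), 0.51 (library totals), 0.29 (no filter), 2.92 (10 in every library), 1.18 (thinned), -0.13 (trend) and -0.13 (trend and replicate block), and 0.63 to 1.00 with 1 library left out.

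For chromosome 6 the median was 2.74 (10 in every library), 2.40 (thinned), 0.73 (trend) and 0.77 (trend and replicate block), and 1.34 to 2.55 with 1 library left out. For chromosome 1 it was 4.92 (upper quartile), 4.55 (library totals), 4.02 (no filter), 4.49 (thinned), 4.58 (trend) and 4.58 (trend and replicate block), and 4.56 to 4.86 with 1 library left out. Filters, thinning and left-out libraries changed which genes were in a median, and the other causes were not tested.

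Signs turned for H2BC12 (-0.53 with the trend removed and -0.53 with the replicate block as well), H4C3 (-0.82 and -0.82 likewise) and H2BC8 (-0.17 with the replicate block, -0.48 with the block and the trend, and -6.84 to 1.22 with 1 library left out, the lowest without CPI-455 replicate 1). Both turned values of H2BC12 passed the FDR (0.0298 and 0.0211). The 2-fold null ended the calls of H2BC12, H2BC15, H3C2, H3C6 and H2AC6. Counting it, H2BC15 and H3C2 lost their call under 5 settings each, H2BC12 under 4 beside the 2 that turned its sign, H3C6 under 3 and H2AC6 under 1, while H4C9 gained one under 4, H1-4 under 3 and H2AC11 under 1. The genes of histone mRNA handling had 1 called higher with library totals, with no filter and with the 2-fold null, and 8 higher and 16 lower with no minimum fold. Their lower count ran from 6 to 10 elsewhere. S-phase genes called higher were 2 with upper-quartile factors and after thinning, 0 with library totals, no filter and the 2-fold null, and 3 with no minimum fold, with 12 lower there, and 0 to 1 with 1 library left out. The H2B sum rose 17.3 times with near-identical genes left out. After thinning all libraries to the smallest, 19 of the 24 genes could still be tested, of which 18 kept their direction and side of the threshold and H4C9 gained a call.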
